A study of Arabidopsis thaliana with 103 samples.

Results

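The transcripts described here come from 70 of the 31187 transposable elements (TEs) listed in the expression tables of *Arabidopsis thaliana* seedlings, and they were chosen because they were silent in the wild type and expressed in *nrpe1-11*, a mutant of the largest subunit of RNA polymerase V (Pol V). A TE was taken when its mean over 3 libraries was under 1 CPM (a count divided by the library's total and multiplied by 1000000) in the wild type grown for *nrpe1-11* and at least 0.5 CPM in *nrpe1-11*, and when the *nrpe1-11* mean was at least 4 times the wild-type mean plus 0.05 CPM. One TE, AT1TE93275, was left out of the list and of the 31187. The members were thus chosen by their levels in *nrpe1-11* and its own wild type, so their levels are given below as a description. The tests concern the other mutants, which have a separate wild-type set that the choice did not use.

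In plants, RNA-directed DNA methylation (RdDM) keeps TEs silent with the help of a pair of plant-specific polymerases. Pol IV makes the precursors of small RNAs, and Pol V makes scaffold transcripts at the target, where small RNAs loaded on an ARGONAUTE protein guide the methyltransferase DRM2. The MORC ATPases and the MOM1 complex, whose partners include the SUMO ligase-like proteins PIAL1 and PIAL2, the MOM1-related protein MOM2 and the chromatin readers AIPP3 and PHD1, also keep TEs silent. The study asked how this complex works with RdDM.

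All RNA came from 12-day-old whole seedlings of the Col-0 ecotype grown on plates, in 14 groups of 3 libraries. The *nrpe1-11* mutant, a T-DNA insertion line, had its own Col-0 set, named Col-0 for nrpe1-11 here. The second Col-0 set served 11 mutants. These were the T-DNA lines *pial1-2* and *pial2-1* and the *pial1/2* double mutant that carries both alleles, *morc6-3*, *morchex* (a sextuple mutant with *morc1-2*, *morc2-1*, *morc4-1*, *morc5-1*, *morc6-3* and *morc7-1*), *aipp3-1*, *aipp3-2*, *mom2-1* and *mom2-2*. The remaining 2 mutants were *phd1-2* and *phd1-4*, which carry small insertions made with CRISPR/Cas9. The labels do not say whether the 3 libraries of a group were grown separately, so p-values measure the spread between these libraries, which may be technical. All 11 comparisons with the second Col-0 set share its 3 libraries.

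Library totals lay between 13164594 and 33464598 counts, so 1 count was worth between 0.0299 and 0.0760 CPM. NRPE1 transcripts were at 3.44, 3.68 and 3.54 CPM in *nrpe1-11* against 13.8, 11.8 and 12.5 CPM in its Col-0 set. AIPP3, MOM2, PIAL2 and MORC6 transcripts were called lower in each line mutated in that gene, while PIAL1 and PHD1 transcripts were not called lower in their mutants and MORC4 was higher in *morchex*. The seedling sets differed beyond genotype. In *nrpe1-11* and its Col-0 set 4 heat response genes summed to between 83.9 and 515 CPM, against 7.97 to 18.6 CPM in the second Col-0 set and its mutants, and 3 shoot markers to between 13663 and 18793 CPM, against 20409 to 28180 CPM. Levels of the TEs in *nrpe1-11* and in the other mutants are set side by side below across this difference, whose part in them was not tested. In every library the 3 pollen markers summed to at most 0.381 CPM. Fewer cells expressing a TE and less RNA per cell cannot be told apart in whole seedlings.

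The 70 TEs together were near the detection limit in both wild-type sets and far above it without Pol V. Their summed level in the 3 libraries of Col-0 for nrpe1-11 was 1.78, 2.08 and 1.26 CPM, and in *nrpe1-11* it was 311, 302 and 337 CPM. The second Col-0 set, which the rule did not use, held 1.13, 1.02 and 0.586 CPM of the same TEs. In that set 56 of the 70 had no count in any library, none reached a mean of 0.5 CPM, and the highest mean was 0.196 CPM. The 70 TEs made up 22.9% of all TE counts in *nrpe1-11* and 0.154% in its Col-0 set. All 70 had a count in every *nrpe1-11* library, and 48 had none in any library of Col-0 for nrpe1-11, values from the libraries that chose them.

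**Figure D1:**
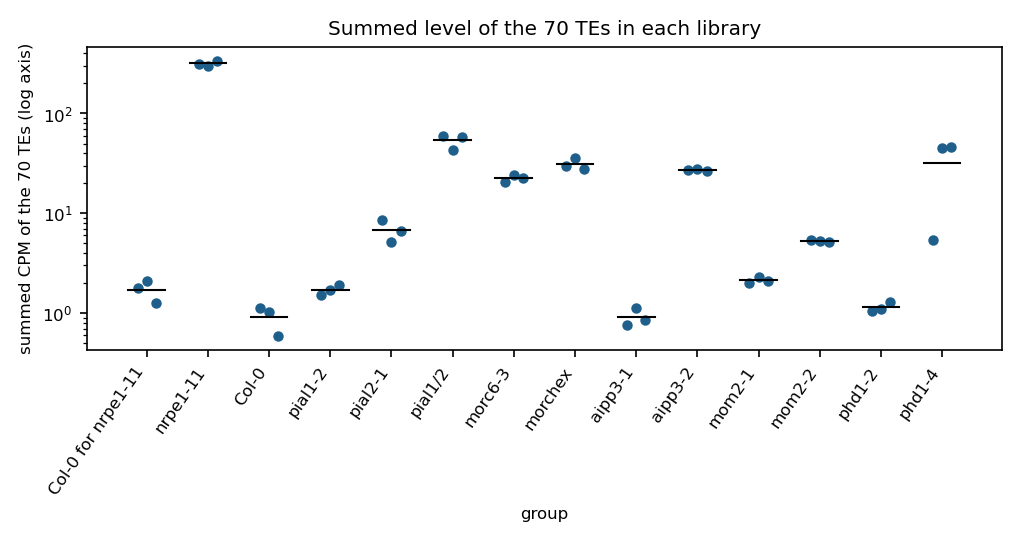
Summed CPM of the 70 TEs (log axis) in each of the 42 libraries, with points for libraries and a line for the mean of a group. *nrpe1-11* stands at 302 to 337 CPM, *pial1/2*, *morchex*, *aipp3-2* and *morc6-3* lie between 20.6 and 60.0 CPM, and 1 *phd1-4* library lies far below the other two.

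The total was carried by few elements. The 10 highest TEs held 61.8% of it, 16 TEs were at 5 CPM or more, and 25 were under 1 CPM. The median was 1.38 CPM and the range 0.525 to 48.7 CPM. Of the 10 highest, AT4TE27915 had 54.1, 45.8 and 46.3 CPM in the *nrpe1-11* libraries against 0.246, 0.135 and 0.418 CPM in their wild type. AT5TE34040 had 34.4, 33.1 and 47.0 CPM against no count. AT3TE47360 had 25.9, 24.9 and 24.1 CPM against no count, and AT2TE07550 had 18.1, 15.4 and 22.9 CPM against 0, 0.0916 and 0 CPM. In these 4 elements no mutant library overlapped a wild-type one, which the choice of members largely fixes. The other 6 were AT2TE00115, AT3TE45980, AT2TE23670, AT1TE44720, AT2TE82000 and AT3TE40125, with *nrpe1-11* means of 16.9, 11.7, 10.7, 10.6, 8.57 and 6.76 CPM. Over the 70 elements the median coefficient of variation between *nrpe1-11* libraries was 21.5%.

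A count of calls in this contrast only restates the rule and is given for reference. By edgeR's quasi-likelihood test 35 of the 70 were called higher in *nrpe1-11*, 44 having passed the filter on low counts, while 0.382% of all genes and TEs tested were called higher. The rule itself took 0.224% of all TEs listed. Applied without replicate 1, 2 or 3 of both groups, the rule took 79, 70 and 71 TEs, of which 68, 67 and 65 were among the 70. In the pair of libraries left out, the *nrpe1-11* value was above the wild-type value for 74 of the 79, 69 of the 70 and 68 of the 71. The libraries left out belong to the same groups, so this describes how stable the choice was and is no separate evidence.

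The limits of the rule were not natural gaps. Just inside the limit on the *nrpe1-11* level stood AT3TE09505 at 0.525 CPM and AT2TE25540 at 0.527 CPM, and just outside it AT1TE69285 at 0.472 CPM and AT4TE08130 at 0.466 CPM. For the fold, AT1TE54100 at 4.80 times and AT2TE27505 at 5.52 times were nearest inside, and AT5TE68375 at 3.74 times and AT3TE64975 at 3.00 times nearest outside. No TE was excluded by the wild-type limit alone. The members nearest to it were AT4TE04415 at 0.414 CPM and AT4TE27915 at 0.266 CPM in Col-0 for nrpe1-11.

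The 70 elements were long. Their median listed length was 2291 bases against 308 for the other 31117 TEs, 38.6% of them were 4000 bases or longer against 3.88%, and 4.29% were under 500 bases against 62.8%. A longer transcript collects more counts at equal abundance, so a rule on CPM favours length. Among the 211 other TEs that also reached 0.5 CPM in *nrpe1-11*, the median was 1038 bases and 21.3% were 4000 bases or longer. By their names 13, 19, 17, 8 and 13 of the 70 lie on chromosomes 1, 2, 3, 4 and 5. In 3 pairs the elements had neighbouring names with no listed TE between them. These were AT3TE45975 with AT3TE45980, AT2TE23665 with AT2TE23670, and AT3TE51895 with AT3TE51900. AT5TE51845 and AT5TE52075, both 4872 bases long, had the same count in each of the 42 libraries, so their reads could not be assigned to one of them.

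**Figure D2:**
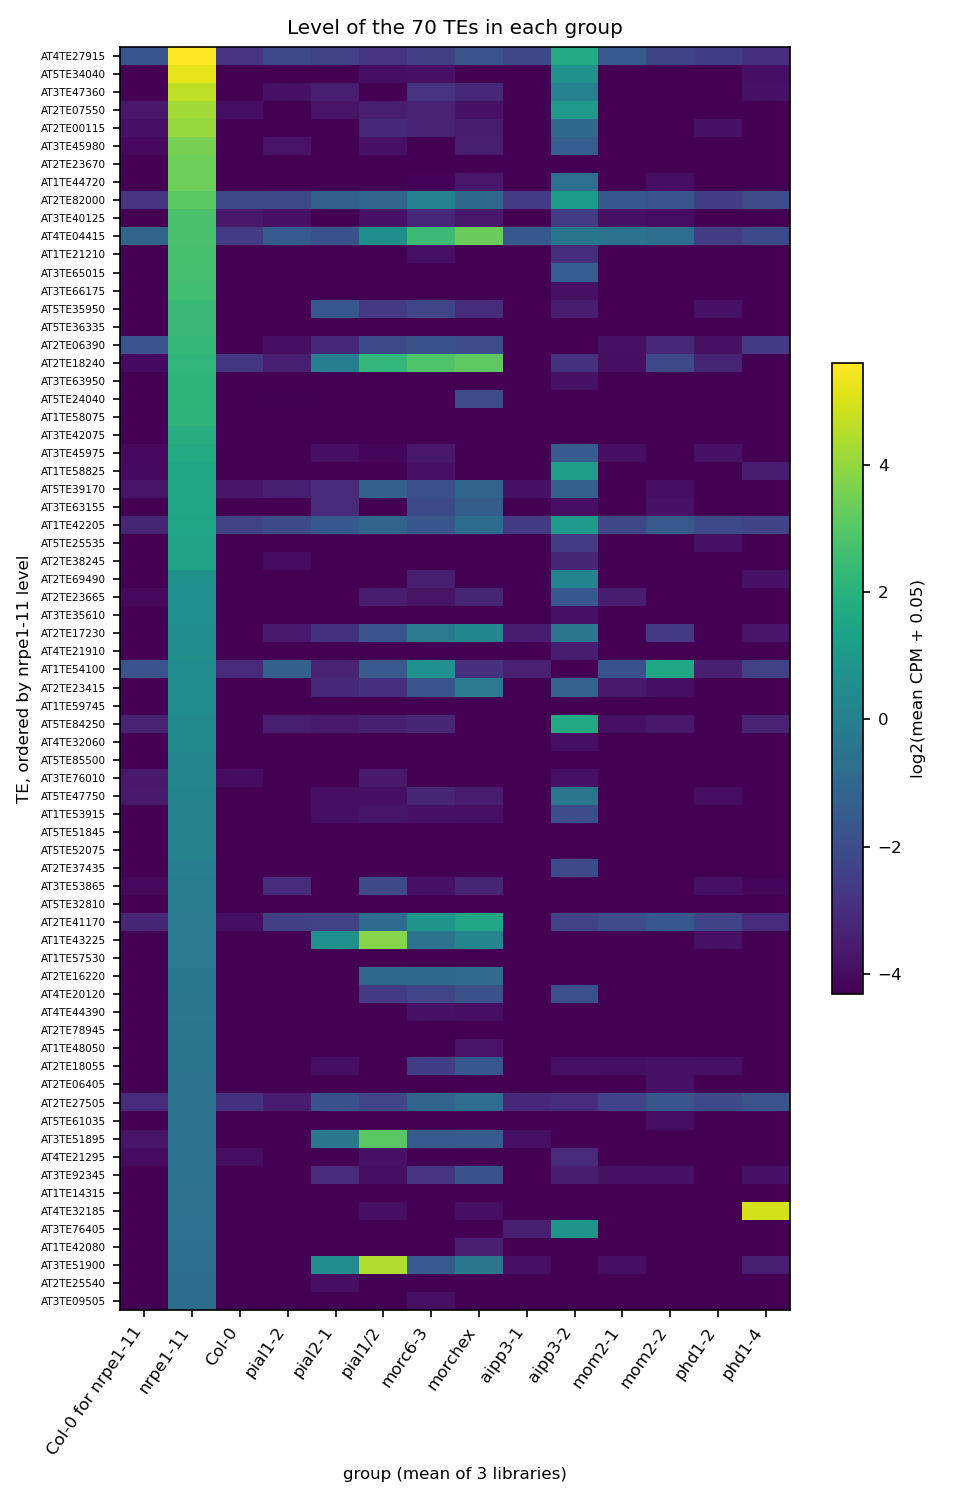
Mean level of each of the 70 TEs (rows, ordered by their level in *nrpe1-11*) in the 14 groups (columns), coloured by log2 of the mean CPM plus 0.05. Of the 10 highest rows of the *nrpe1-11* column all but AT2TE23670 have counts in the *aipp3-2* column, while the brightest cells of *pial1/2* and *morchex*, AT3TE51900 and AT4TE04415, lie in lower rows.

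In each of the 11 other mutants taken singly the median level of the 70 TEs was at most 0.0267 CPM, the value of *aipp3-2*. In 28 of the 70 TEs no mutant reached a mean of 0.1 CPM, and 12 had no count in any Col-0 or mutant library of the second set. AT2TE23670 is the highest of these 12, at 13.1, 9.51 and 9.39 CPM in *nrpe1-11*. In 18 TEs the highest mutant mean lay from 0.1 to under 0.5 CPM, and in 24 it was 0.5 CPM or more. The median *nrpe1-11* level was 1.07 CPM for the 28 and 1.43 CPM for the 24, and the median length 4702 and 1388 bases.

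The rule was then applied to each mutant against the second Col-0 set. It took 14 of the 70 in *aipp3-2*, 8 in *morchex*, 6 each in *pial1/2* and *morc6-3*, 4 in *pial2-1*, 1 each in *mom2-2* and *phd1-4*, and 0 in *pial1-2*, *aipp3-1*, *mom2-1* and *phd1-2*. Of all TEs listed the same rule took 0.0705% in *aipp3-2*, 0.144% in *morchex*, 0.237% in *pial1/2*, 0.0802% in *morc6-3*, 0.0673% in *pial2-1*, 0.016% in *mom2-2* and 0.00962% in *phd1-4*. The overlap read the other way differed between mutants. Members were 14 of the 22 TEs that the rule took in *aipp3-2* (63.6%, and 20.0% of the 70), 8 of 45 in *morchex* (17.8%, and 11.4% of the 70), 6 of 25 in *morc6-3* (24.0%, and 8.57%) and 6 of 74 in *pial1/2* (8.11%, and 8.57%). In all, 47 of the 70 were taken in none of the 11 mutants, 15 in 1 and 8 in 2 to 4 of them.

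The rule took the most members outside *nrpe1-11* in the *aipp3-2* line, 1 of the 2 alleles of AIPP3, a reader of chromatin marks. Its libraries held 27.1, 27.6 and 26.8 CPM of the 70 TEs, 8.57% of the *nrpe1-11* level, and those of *aipp3-1* held 0.759, 1.12 and 0.849 CPM, the range of the wild type. Against Col-0, 9 of the 70 were called higher in *aipp3-2*, while 2.68% of all genes and TEs tested were called higher. A call needed a change of at least 1 on the log2 scale at an adjusted p under 0.05 in edgeR's quasi-likelihood test. The filter on low counts asked for 1 CPM in 2 of the 6 libraries, and no member exceeded 0.384 CPM in a library of the second Col-0 set. Members could therefore pass it only through the mutant in every comparison with this set, so that those tested were called higher and none lower was largely fixed by the filter. The 9 were 9 of the 17 TEs called higher in this mutant (52.9%, and 12.9% of the 70), where 10.5% of the TEs tested were called higher. Only these 9 members passed the filter and were tested, so 12.9% and 10.5% have different bases. In *aipp3-1*, where 1.78% of features and 7.33% of TEs tested were called higher, no member passed the filter. DESeq2 used the same filter and so tested none of them. With no filter edgeR called 0 of 17 tested members higher, 0 being higher at an unadjusted p under 0.05.

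The elements that rose in *aipp3-2* included the highest ones of *nrpe1-11*. AT4TE27915 had 2.67, 2.81 and 4.34 CPM in *aipp3-2*, 0.183, 0.107 and 0 CPM in Col-0, and 0.127, 0.241 and 0.132 CPM in *aipp3-1*. The *aipp3-2* libraries lay above all 6 others, and the ratio of summed counts to Col-0 was 35.0 (95% counting interval 15.6 to 82.7, adjusted p = 0.00154, edgeR). AT5TE34040 had 1.77, 1.83 and 1.43 CPM and no count in Col-0 or *aipp3-1*, which is at least 38.9-fold higher than Col-0 taken at a floor of 3 counts over the group (adjusted p = 0.00193, edgeR). AT2TE07550 had 1.45, 2.45 and 2.04 CPM against 0.0421, 0 and 0 CPM in Col-0, a single count, and a ratio of 138 with a counting interval of 24.4 to 5515 (adjusted p = 0.00132, edgeR). Counting intervals and floors cover counting error only.

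Release in *aipp3-2* was not a fixed share of that in *nrpe1-11*. AT5TE84250 reached 3.70, 3.54 and 2.42 CPM in *aipp3-2* against 1.51, 1.26 and 1.18 CPM in *nrpe1-11*, and AT3TE76405 reached 2.18, 1.42 and 1.57 CPM against 0.456, 0.773 and 0.494 CPM. In both elements every *aipp3-2* library lay above every *nrpe1-11* library, and neither had a count in the second Col-0 set (at least 74.8-fold and 40.2-fold higher in *aipp3-2*, adjusted p = 0.00143 and 0.00232, edgeR). AT1TE58825 stood at 2.83, 2.32 and 1.86 CPM in *aipp3-2* against 3.03, 3.65 and 2.53 CPM in *nrpe1-11*, with overlapping ranges and no count in the second Col-0 set (at least 54.5-fold higher, adjusted p = 0.00161, edgeR). AT2TE69490 reached 1.02, 1.63 and 0.545 CPM against no count in Col-0 (at least 24.6-fold higher, adjusted p = 0.00996, edgeR). The level in *aipp3-2* as a share of that in *nrpe1-11* ran from 4.05% to 300% over the 14 elements that the rule took, with a median of 36.6%. Those 14 were taken for a high level in *aipp3-2*, and over all 70, of which 28 had no count there, the median share was 1.49%. AT2TE23670 and AT5TE36335, both above 5 CPM in *nrpe1-11*, had no count in *aipp3-2*. Levels in *nrpe1-11* and *aipp3-2* come from seedling sets with separate wild types, so these shares are set side by side and were not tested.

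**Figure D3:**
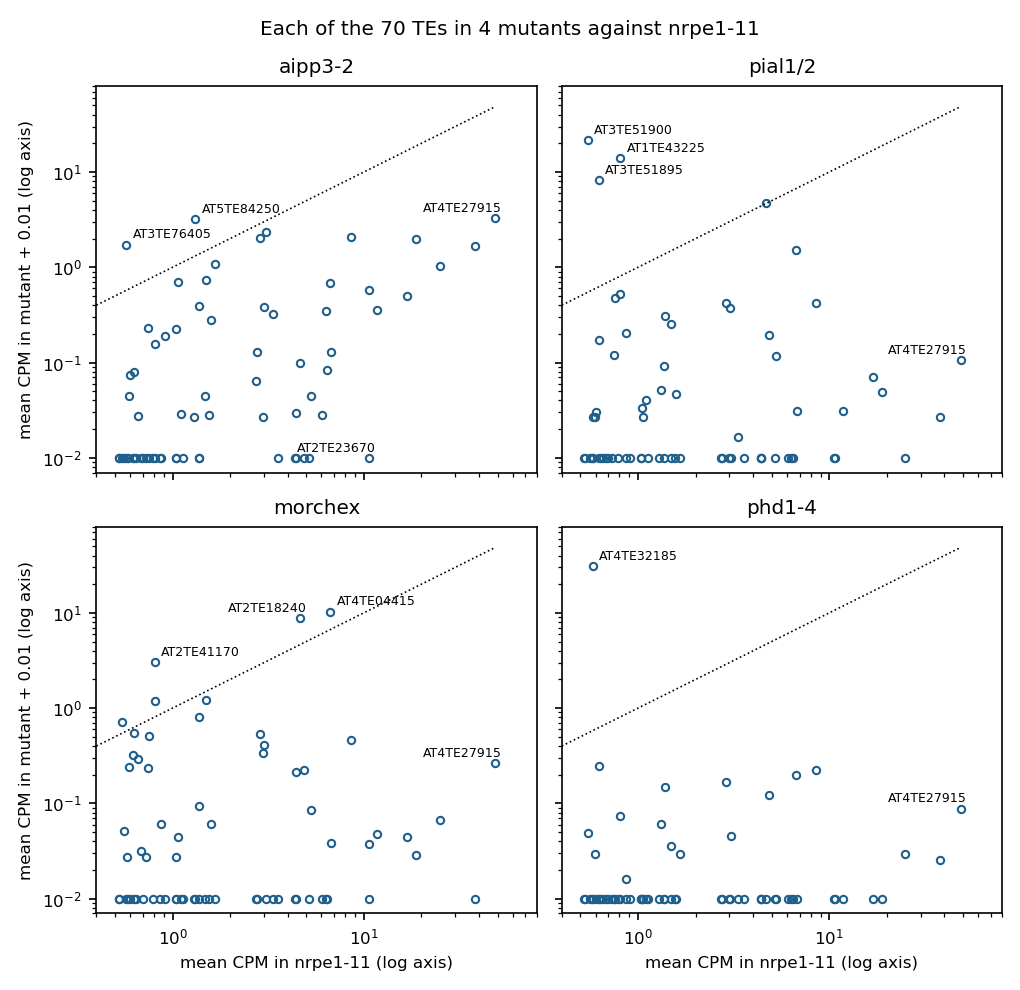
Mean CPM of each of the 70 TEs in *aipp3-2*, *pial1/2*, *morchex* and *phd1-4* (plus 0.01, log axis) against its mean CPM in *nrpe1-11* (log axis), with a dotted line at equal levels. In *aipp3-2* the 4 highest elements of *nrpe1-11* are at 1.01 to 3.27 CPM, in *pial1/2* the 3 highest lie at the low end of *nrpe1-11*, and in *phd1-4* AT4TE32185 is alone above the line.

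The 2 alleles of AIPP3 were compared directly, a contrast added after the levels were seen. In *aipp3-2*, 6 of the 70 were higher than in *aipp3-1* and 0 lower, of 9 tested, with 0.0892% of all features called higher and 0.0248% lower. The highest mean of a member in *aipp3-1* was 0.285 CPM, so the 9 passed the filter only through *aipp3-2*. That none was lower was therefore fixed by the filter. No label states a pairing, but replicate numbers were taken to pair the libraries of these alleles because their deviations correlated. With the replicate as a block 5 of the 6 were called, AT5TE34040 being lost. The 6 were AT4TE27915, AT2TE82000, AT1TE42205, AT5TE84250, AT1TE58825 and AT5TE34040, with adjusted p from 0.0103 to 0.0430 (edgeR), and they were all 6 of the TEs called higher in this contrast (3.8% of TEs tested). The count was sensitive to single libraries. It was 0 without *aipp3-1* replicate 1 or 2 or *aipp3-2* replicate 2, and 1 without *aipp3-2* replicate 1 or 3, each fit then resting on 5 libraries. By levels alone, every *aipp3-2* library lay above every Col-0 and *aipp3-1* library in 23 of the 70, against 0.183% of all TEs listed.

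AIPP3 transcripts were at 3.79, 3.81 and 4.77 CPM in *aipp3-2*, at 10.5, 10.6 and 10.2 CPM in *aipp3-1* and at 33.5 to 37.3 CPM in Col-0. Among 26 RdDM genes, DRM2, the methyltransferase of the pathway, was lower in *aipp3-2*, at 6.40 ± 0.778 CPM (SD, n = 3) against 17.2 ± 0.632 in Col-0 (log2 fold change −1.50, SE 0.12, adjusted p = 0.000632, edgeR), and also lower than in *aipp3-1* (14.8 ± 1.60 CPM, log2 fold change −1.24, adjusted p = 0.0399, edgeR). Called higher in both alleles were AGO9, a germline ARGONAUTE, and CLSY3, a chromatin remodeller that recruits Pol IV. Of 9 genes of maintenance methylation and demethylation, ROS1, a DNA demethylase whose expression is known to depend on RdDM, fell to 0.395 ± 0.322 CPM in *aipp3-2* from 46.9 ± 4.18 in Col-0 (log2 fold change −6.94, SE 0.26, adjusted p = 2.01e-05, edgeR) and was at 63.1 ± 5.02 CPM in *aipp3-1*. In *nrpe1-11* ROS1 was at 4.22 ± 0.956 CPM against 53.9 ± 4.89 in its Col-0 set (log2 fold change −3.68, SE 0.19, adjusted p = 0.000824, edgeR), and NRPE1 was the only 1 of the 26 RdDM genes called, as lower. In the other 9 mutants no gene of either list was called in edgeR. Flower markers moved with both AIPP3 alleles, 3 of 3 called higher in *aipp3-1* and 2 of 3 in *aipp3-2*, with summed levels of 9.04 to 10.7 and 7.30 to 8.98 CPM against 1.68 to 3.15 CPM in Col-0. The part of DRM2, ROS1 and floral tissue in the TE levels was not tested. Whether the *aipp3-2* line differs from *aipp3-1* elsewhere in its genome was not tested, so its values belong to the line and may not be those of AIPP3 loss alone.

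The PIAL and MORC mutants released few of the 70. In *pial1/2*, 5 of the 70 were called higher than in Col-0, with 0.474% of all features called higher. They were 5 of the 48 TEs called higher in this mutant (10.4%, and 7.14% of the 70), where 24.2% of the TEs tested were called higher. Only these 5 members passed the filter and were tested. The share of the 70 and the share of TEs tested therefore have different bases. The 3 highest were at the low end of the *nrpe1-11* list. AT3TE51900 had 24.0, 15.6 and 24.8 CPM in *pial1/2*, no count in Col-0, and 0.434, 0.628 and 0.578 CPM in *nrpe1-11*. AT1TE43225 had 16.1, 10.1 and 15.7 CPM, no count in Col-0, and 0.615, 1.02 and 0.795 CPM in *nrpe1-11*. AT3TE51895, the neighbour of AT3TE51900, had 7.72, 8.27 and 8.74 CPM and no count in the second Col-0 set. These levels were at least 505-fold, 328-fold and 193-fold higher than the floor in Col-0 (adjusted p = 0.000399, 0.00055 and 0.000107, edgeR). In each of the 3 every *pial1/2* library also lay above every *nrpe1-11* library.

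The same TEs were read in the single mutants. In *pial1-2* no member passed the filter, which DESeq2 shared, so neither tool tested one, 0.0455% of features and 1.37% of TEs tested being called higher. With no filter edgeR called 0 of 20 tested members, 3 being higher at an unadjusted p under 0.05. In *pial2-1* 1 of the 70 was called higher than in Col-0, with 0.0961% of features and 2% of TEs tested called higher. This was AT1TE43225 at 1.81, 1.07 and 1.66 CPM against no count (at least 34.9-fold higher, adjusted p = 0.0398, edgeR). Its call was lost in a fit without *pial2-1* replicate 1 or 3 or any one Col-0 library, leaving 0 calls, and the count rose to 2 without *pial2-1* replicate 2. Other members had every *pial2-1* library above every Col-0 library without a call. AT3TE51900 was at least 31.5-fold higher (adjusted p = 0.153, edgeR), and AT3TE51895 (at least 15.9-fold) and AT2TE18240 (8.44-fold, counting interval 3.78 to 22.2) were not tested. Against *pial1-2*, 4 of the 70 were higher in *pial1/2* (0.46% of features and 22.8% of TEs tested), AT3TE51895, AT3TE51900, AT1TE43225 and AT2TE18240, and 0 lower (0.0101% of features). No tested member exceeded 0.418 CPM in a *pial1-2* library, so the filter fixed that none was lower. Against *pial2-1*, 4 were also higher (0.303% of features and 17.4% of TEs tested), with AT4TE04415 in place of AT2TE18240, and 0 lower (0.0202% of features), with 2 left without *pial1/2* replicate 2. The exchange of those 2 TEs rests on values near the threshold, since AT4TE04415 was 4.78 times its *pial1-2* level (adjusted p = 0.0507, edgeR) and AT2TE18240 5.45 times its *pial2-1* level (adjusted p = 0.0641, edgeR). AT1TE43225, AT3TE51900 and AT3TE51895 were 9.39, 16.1 and 12.1 times their *pial2-1* levels (adjusted p = 0.00354, 0.00533 and 0.0068, edgeR). AT4TE04415, AT3TE51895 and AT2TE18240, with *pial2-1* means of 0.232, 0.737 and 0.887 CPM, passed the filter only through *pial1/2*. That none of these was lower than in *pial2-1* was therefore largely fixed by the filter.

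In *morc6-3*, a mutant of a GHKL ATPase that compacts chromatin, 4 of the 70 were called higher than in Col-0 (1.03% of features and 11% of TEs tested called higher). In *morchex* 5 were called higher (1.46% of features and 13.2% of TEs tested called higher). Without *morchex* replicate 2 the count was 3. Members were 4 of 18 TEs called higher in *morc6-3* (22.2%, and 5.71% of the 70) and 5 of 22 in *morchex* (22.7%, and 7.14% of the 70). Only these 4 and 5 members passed the filter and were tested, so the shares of the 70 and of TEs tested have different bases. AT2TE18240 had 6.84, 8.05 and 6.74 CPM in *morc6-3*, 7.49, 11.9 and 6.85 CPM in *morchex*, 6.39, 3.80 and 3.81 CPM in *pial1/2*, and 0.168, 0.0961 and 0.0394 CPM in Col-0. All 9 mutant libraries lay above the wild type, by 72.2, 85.4 and 46.0 times (adjusted p = 1.9e-05, 0.000234 and 0.000665, edgeR). AT4TE04415 had 5.64, 5.86 and 5.33 CPM in *morc6-3*, 11.4, 10.7 and 8.90 CPM in *morchex*, 1.40, 1.3 and 1.80 CPM in *pial1/2*, and 0.0576, 0.192 and 0.0910 CPM in Col-0. Its 3 mutants did not overlap each other, the ratios to Col-0 being 51.2, 93.4 and 13.8 (adjusted p = 3.32e-05, 2.93e-05 and 0.00778, edgeR). AT2TE41170 had 1.63, 1.70 and 2.14 CPM in *morc6-3* and 3.44, 3.17 and 2.55 CPM in *morchex* against 1 count in Col-0, a ratio of 127 (22.4 to 5088) and of 212 (37.5 to 8420). In *morchex* AT2TE17230 and AT1TE43225, with no count in Col-0, were at 1.2 and 1.17 CPM (at least 27.3-fold and 27.5-fold higher, adjusted p = 0.00424 and 0.00961, edgeR).

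The mutants were also compared directly. Between *morchex* and *pial1/2*, 3 of the 70 were higher in *morchex* (1.12% of features and 3.92% of TEs tested) and 3 lower (3.05% of features). Against Col-0, 2.45% of features were lower in *morchex* and 0.0101% in *pial1/2*, and the part of this wider difference was not tested. Lower in *morchex* were AT3TE51900, AT3TE51895 and AT1TE43225, by log2 fold changes of −4.86 (SE 0.38), −4.74 (SE 0.47) and −3.59 (SE 0.35), with adjusted p of 0.00102, 0.00195 and 0.00195 (edgeR). Higher were AT4TE04415, AT2TE41170 and AT2TE17230, by 6.75, 5.87 and 4.71 times. AT2TE41170 and AT2TE17230, at most 0.657 and 0.301 CPM in a *pial1/2* library, passed the filter only through *morchex*. AT3TE51895 (at most 0.531 CPM in *morchex*) and AT3TE51900 (mean 0.712 CPM in *morchex*) passed it only through *pial1/2*. The direction of these calls was largely fixed by the filter, unlike that of AT4TE04415 and AT1TE43225, which could pass it through either mutant. Between *morchex* and *morc6-3*, no member was called higher (0.0151% of features) or lower (0.0201% of features), 3 of 6 tested having an unadjusted p under 0.05. Replicate numbers were taken to pair these libraries from correlated deviations, which no label states. With the replicate as a block 1 member was called lower in *morchex*. It was AT1TE54100, at 0, 0.156 and 0.0986 CPM in *morchex* and 1.29, 1.90 and 1.48 CPM in *morc6-3* (adjusted p = 0.0125 with the block and 0.107 without, edgeR), and DESeq2 called it too. AT1TE54100 passed the filter only through *morc6-3*, so the direction of its call was largely fixed by the filter. The *morchex* and *morc6-3* libraries do not overlap at this TE, although *morchex* carries the *morc6-3* allele.

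**Figure D4:**
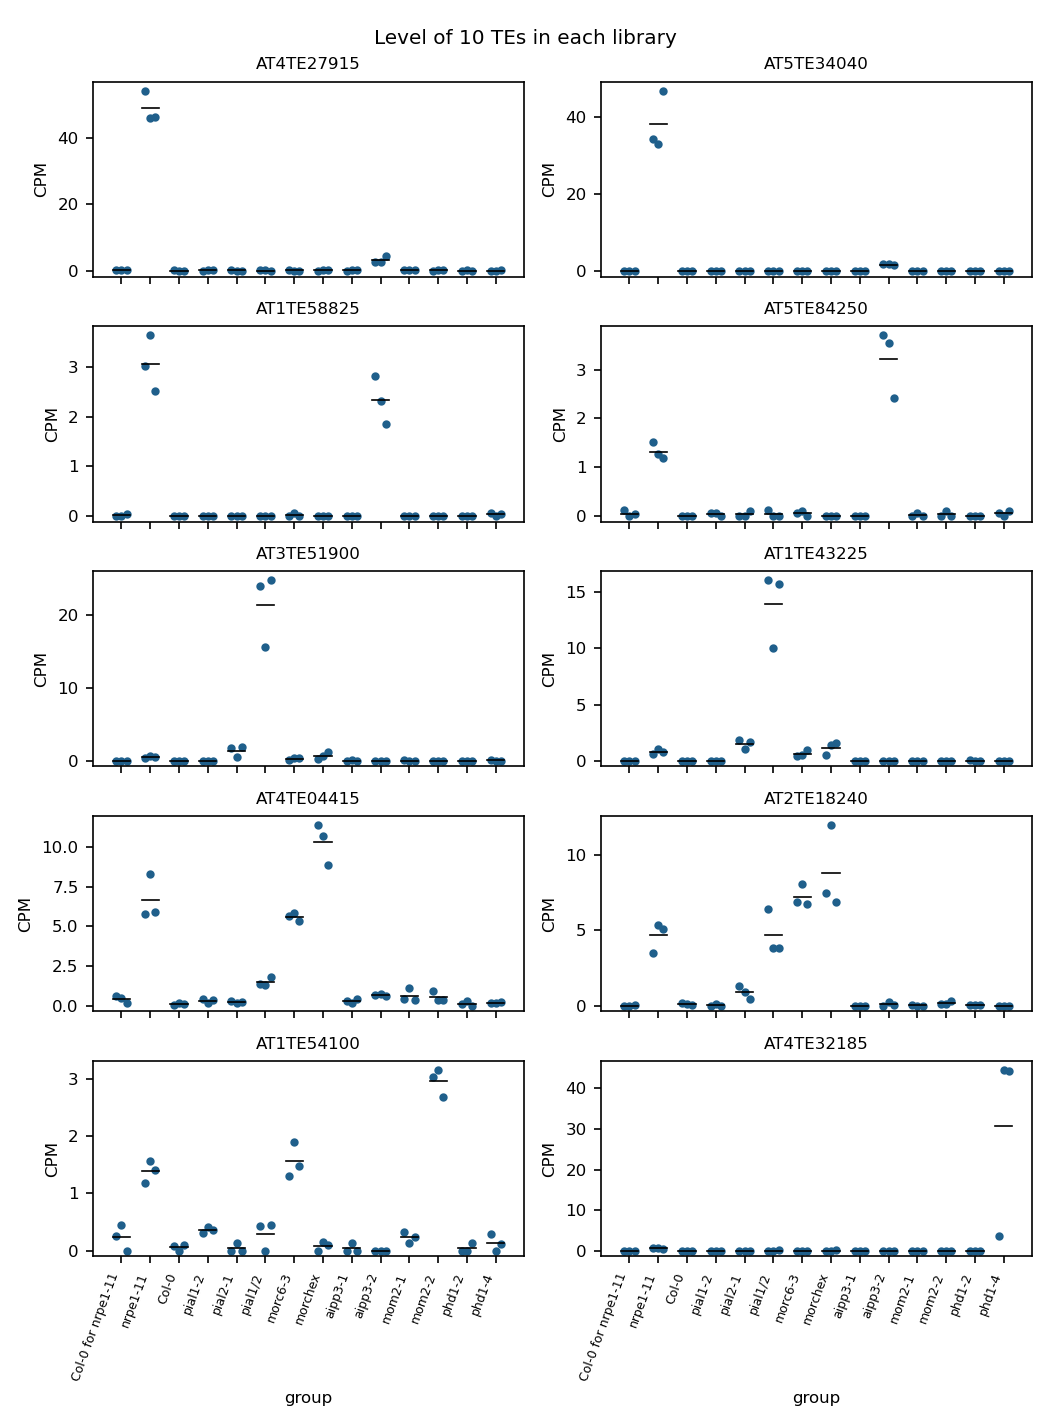
CPM of 10 TEs in each of the 42 libraries, by group, with points for libraries and a line for the mean. AT4TE27915 and AT5TE34040 are high in *nrpe1-11* and low in *aipp3-2*, AT3TE51900 and AT1TE43225 are highest in *pial1/2*, AT4TE04415 and AT2TE18240 in *morchex*, and AT1TE54100 in *mom2-2*. AT4TE32185 is high in 2 of the 3 *phd1-4* libraries.

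AT1TE54100 was also the member called in a MOM2 mutant. It had 3.04, 3.15 and 2.68 CPM in *mom2-2*, 0.333, 0.129 and 0.230 CPM in *mom2-1* and 0.0888, 0 and 0.101 CPM in Col-0. The *mom2-2* libraries lay above all 6 others, by 44.5 times over Col-0 (17.4 to 130, adjusted p = 0.000611, edgeR) and 12.8 times over *mom2-1* (7.31 to 23.6, adjusted p = 0.0012, edgeR). It was 1 of the 70 called higher in *mom2-2* against Col-0, where 0.901% of features and 2.7% of TEs tested were called higher, and 1 against *mom2-1*, with 0 lower, where 0.621% of features were called higher and 2.51% lower. The contrast between the 2 alleles was added after the levels were seen, and the 1 member tested passed the filter only through *mom2-2*. Over all features, 2.48% were lower than Col-0 in *mom2-2* and 0.0203% in *mom2-1*. The share was also 1.97% to 2.57% in *morc6-3*, *morchex*, *phd1-2* and *phd1-4*, mutants of other genes. A difference between libraries that goes beyond the MOM2 allele cannot be told apart from it here, and its part was not tested. In *mom2-1*, where 0.0152% of features and 0 TEs were called higher, no member passed the filter, which DESeq2 shared, so neither tool tested one. With no filter 0 of 21 tested members were called in edgeR, 3 having an unadjusted p under 0.05. MOM2 transcripts were at 1.71 ± 0.496 CPM in *mom2-2* and 0.0663 ± 0.0574 CPM in *mom2-1* against 6.72 ± 0.529 CPM in Col-0 (SD, n = 3).

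In *phd1-4* 1 member was called higher than in Col-0, where 1.14% of features and 5.41% of TEs tested were called higher. AT4TE32185 had 3.70, 44.5 and 44.3 CPM in *phd1-4*, no count in Col-0 or *phd1-2*, and 0.687, 0.687 and 0.361 CPM in *nrpe1-11*. The 3 libraries lay above the wild type, replicate 1 far below the other two, and the level was at least 719-fold above the floor in Col-0 (adjusted p = 0.00694, edgeR). Without this TE the other 69 summed to between 1.06 and 1.73 CPM in *phd1-4*. In a contrast with *phd1-2*, added after the levels were seen, 0 members were called (0% of features called higher), AT4TE32185 having an unadjusted p of 0.000903 and an adjusted p of 1.000 in edgeR. Replicate numbers were taken to pair these libraries from correlated deviations, which no label states. With the replicate as a block AT4TE32185 was called in edgeR (adjusted p = 1.12e-08), so its call rests on that choice. It was also called in DESeq2 and in edgeR without *phd1-4* replicate 1 (adjusted p = 0.000248). In *phd1-2* (1.13% of features and 2.05% of TEs tested called higher against Col-0) no member passed the filter, which DESeq2 shared, so neither tool tested one. With no filter 0 of 22 tested members were called in edgeR, 1 having an unadjusted p under 0.05.

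No member was called lower than Col-0 in any of the 11 mutants by edgeR or DESeq2, but 56 of the 70 had no count there, so a decrease was not detectable. At an unadjusted p under 0.05 and with no filter, edgeR gave 1 member lower in *aipp3-1*, 1 in *phd1-4* and 0 in the other 9. Over all genes and TEs the share called lower was 0.0607% in *pial1-2*, 0.0506% in *pial2-1*, 0.0101% in *pial1/2*, 2.33% in *morc6-3*, 2.45% in *morchex*, 1.1% in *aipp3-1*, 1.53% in *aipp3-2*, 0.0203% in *mom2-1*, 2.48% in *mom2-2*, 1.97% in *phd1-2* and 2.57% in *phd1-4*. The 3 members highest in Col-0, AT2TE82000, AT1TE42205 and AT4TE04415, were at 0.196 ± 0.165, 0.140 ± 0.104 and 0.114 ± 0.0701 CPM (SD, n = 3). AT2TE82000 and AT1TE42205 rose in *aipp3-2* to 2.07 ± 0.220 and 2.04 ± 0.429 CPM (log2 fold change 3.35, SE 0.44, adjusted p = 0.0034, and 3.71, SE 0.42, adjusted p = 0.00214, edgeR).

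For 5 of 26 members that could be searched the counts tied the TE to an annotated pseudogene. RSEM divides a read that fits several features between them, which leaves counts that are not whole. A member was searched when its count was not whole in at least 6 libraries, and for 21 of the 26 no single partner was found. In AT1TE54100 the count was not whole in 24 libraries, and in all 24 its sum with that of AT1G43590 was whole to within 0.02. For AT2TE18240 and AT2G10980 this held in 12 of 12 libraries, for AT5TE47750 and AT5G35205 in 6 of 6, for AT2TE06390 and AT2G04135 in 13 of 14, and for AT2TE16220 and AT2G09890 in 5 of 6. Each pair shared reads, and each partner is a pseudogene on the chromosome named in the TE. The tables do not say whether the partner lies within the TE or is a copy elsewhere. The partners of the 2 TEs called in the MOM2, MORC or PIAL mutants are shown by their first 150 bases in transcript direction, from the RefSeq annotation of the TAIR10.1 assembly, with AT2G10980 at chr2:4336273-4337467 on the plus strand and AT1G43590 at chr1:16414121-16414627 on the plus strand.
AT2G10980: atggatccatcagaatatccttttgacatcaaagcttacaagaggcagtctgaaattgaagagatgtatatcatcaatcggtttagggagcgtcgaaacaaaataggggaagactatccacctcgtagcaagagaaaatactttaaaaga
AT1G43590: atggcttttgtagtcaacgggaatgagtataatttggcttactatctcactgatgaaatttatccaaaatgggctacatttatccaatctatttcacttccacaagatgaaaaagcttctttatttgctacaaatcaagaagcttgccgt

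The partner AT1G43590 was itself at 3.89 CPM in *mom2-2* and 2.27 CPM in *morc6-3* against 0.222 CPM in Col-0 and 0.319 CPM in *morchex*, the order of AT1TE54100. AT2G10980 stayed at or under 0.0999 CPM in every group, so nearly all reads of that pair were given to AT2TE18240.

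Chromatin immunoprecipitation peaks from floral tissue were read at the 5 pseudogene loci, with peaks called for each library on its own. The 7 MORC6-Myc lists outside *pial1/2* pool libraries labelled without a background with transgenic lines in the *morc6* and Col-0 backgrounds. The 3 lists in *pial1/2* come from separate transgenic lines. PHD3 carried a FLAG tag in replicate 1 and a Myc tag in replicate 2. AT2G10980 overlapped a MORC6-Myc peak in 7 of 7 lists from lines other than *pial1/2*, a PIAL2-Myc peak in 2 of 2 lists, and a MORC6-Myc peak in 0 of 3 lists in *pial1/2*. AT5G35205 did so in 7 of 7, 1 of 2 and 0 of 3 lists. AT2G04135, AT2G09890 and AT1G43590 overlapped a MORC6-Myc peak in 6, 4 and 3 of the 7 lists, and none of them a PIAL2-Myc peak. Of all 4843 annotated pseudogenes, 8.36% to 24.6% overlapped a peak in these 7 MORC6-Myc lists, 3.10% to 6.30% in the PIAL2-Myc lists and 1.28% to 1.34% in the MORC6-Myc lists of *pial1/2*. The lists of *pial1/2* held 1151 to 1348 peaks against 4916 to 13430 in the others, so fewer overlaps of any locus follow from fewer peaks. The AIPP3, PHD1 and PHD3 lists had no peak at the 5 loci, and 1.18% to 2.23%, 0.0619% to 4.21% and 0.558% to 1.88% of all pseudogenes overlapped one, so 0 of 5 was near the background.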

How the data were processed

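RNA sequencing of 42 seedling libraries was used. Per the study's methods, reads were aligned to TAIR10 with Bowtie2 and quantified with RSEM, and the authors deposited, for each library, expected counts and TPM for every gene and TE. Expected counts divide multiply mapped reads between copies, so a TE and its relatives can share reads. CPM was the expected count over the library sum. Rounded counts were tested with edgeR 4.0.16 (quasi-likelihood, TMM, R 4.3.3), keeping features at 1 CPM or more in 2 of 6 libraries, with Benjamini-Hochberg adjustment over all genes and TEs. Calls needed a log2 fold change of at least 1 and an adjusted p under 0.05. The quasi-likelihood test gives no standard error. The SE printed beside a log2 fold change is the size of the unshrunk log2 coefficient divided by the square root of the F statistic. Deposited peak positions were used as given in TAIR10, and none lay past the end of a chromosome of the TAIR10.1 annotation. The bisulfite PCR files were not used here.

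Alternatives were DESeq2 1.42.0, RLE size factors, no filter or one at 0.5 CPM, a replicate block, no minimum fold change, 1 fit over all groups and leaving out each library, and TPM, other limits and TMM sizes for the rule. Replicate numbers were taken to pair libraries where all 3 same-numbered pairs deviated together with a correlation over 0.1, which held for *aipp3-2* with *aipp3-1* (0.324 to 0.404), *morchex* with *morc6-3* (0.244 to 0.488), *phd1-4* with *phd1-2* (0.143 to 0.423), and *pial1/2* (0.170 to 0.403) and *mom2-1* (0.224 to 0.373) with Col-0. On simulated counts for *pial1/2* against Col-0, with 200 of 19651 tested features changed 4-fold, edgeR recovered 199 with 1 false call and DESeq2 198 with 0. The simulation gave every feature the same dispersion and covered all features that passed the filter. It checks the code and does not give the power for TEs near 1 CPM.

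The 70 TEs, the gene lists and the tests were chosen with earlier results of these data known. Named TEs were the 10 highest in *nrpe1-11*, called members with separated libraries (5 at most per direction and mutant), the 3 largest changes of each direct contrast, the 3 highest in Col-0 and those nearest to each limit. Other TEs were named after their values were seen. Of the heat, root and shoot lists only HSFA2 was called (higher in both *aipp3* alleles against Col-0, within sets only), and no pollen or seed gene passed the filter. Intervals are exact binomial on rounded counts.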

Additional observations from a re-analysis of the deposited data

Results flagged for a closer look

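In 3 contrasts the effect of one mutant on the 70 TEs differed from that of a related mutant by a direct test in edgeR. Between the alleles of AIPP3, 6 members were higher in *aipp3-2* than in *aipp3-1*. Between the alleles of MOM2, 1 member, AT1TE54100, was higher in *mom2-2* than in *mom2-1*. In both contrasts the members tested passed the filter only through *aipp3-2* or *mom2-2*. Between *morchex* and *pial1/2*, 3 members were higher and 3 lower in *morchex*. For all of these but AT4TE04415 and AT1TE43225 the filter was passed through 1 of the mutants only, which largely fixed the direction. Over all features, 2.48% were lower than Col-0 in *mom2-2* and 2.45% in *morchex*, against 0.0203% in *mom2-1* and 0.0101% in *pial1/2*. Whether these shares come from the mutations or from other differences between the libraries was not tested. Groups of 3 libraries were not examined for single outlying libraries by a test, and the low *phd1-4* value of AT4TE32185, 3.70 CPM against 44.5 and 44.3 CPM, is given as measured.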

How the results depend on the processing

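Counts of members called moved with several settings. Without a filter 13 members were called higher in *morc6-3*, 15 in *morchex*, 23 in *aipp3-2*, 3 in *mom2-2* and 5 in *morchex* over *pial1/2*, and with a filter at 0.5 CPM 8 in *morc6-3*, 9 in *morchex* and 14 in *aipp3-2*. One fit over all groups called 4 in *pial2-1*, 9 in *morc6-3*, 8 in *morchex* and 3 in *mom2-2*. DESeq2 called 2 in *pial2-1*, 1 higher in *phd1-4* than in *phd1-2* and 1 lower in *morchex* than in *morc6-3*, where no filter also gave 1. With no minimum fold change, summed over the mutants, 11 RdDM genes were higher and 2 lower (4 and 1 with it), and 1 maintenance gene was higher and 3 lower (0 and 1 with it). The rule took 157 TEs on TPM, 45 with a minimum of 1 CPM and 42 with an offset of 0.25 CPM. No value reversed. The causes were not tested.

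Leaving out 1 library gave 0 to 2 calls in *pial2-1*, 3 to 5 in *morchex*, 8 to 9 in *aipp3-2*, 4 to 5 in *pial1/2*, 2 to 3 in *pial1/2* over *pial2-1*, 2 to 4 in *morchex* over *pial1/2*, 0 to 5 in *aipp3-2* over *aipp3-1* and 0 to 1 in *phd1-4* over *phd1-2*. Leaving out a replicate from the rule gave 70 to 79 TEs.

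With the replicate block, *pial2-1*, whose numbers did not pair with Col-0, had 0 calls (AT1TE43225, adjusted p = 0.0589, edgeR). Of the contrasts taken as paired, the block gave 1 call lower in *morchex* than in *morc6-3*, 1 in *phd1-4* over *phd1-2* and 5 in *aipp3-2* over *aipp3-1*, and it changed no count of members in *pial1/2* or *mom2-1* against Col-0. Depth limits the TEs under about 1 CPM, where 1 count was worth 0.0299 to 0.0760 CPM.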
